A study of Mus musculus with 20 samples.

Results

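Mitosis and spindle genes encode the proteins that take a cell from the entry into mitosis to its division into daughter cells. The 43 genes described here were listed by symbol for what their proteins do, with earlier results of these data known, and were found by their Ensembl identifiers among the 39179 genes of the authors' deposited table. They comprise 8 cyclins, kinases and other entry factors, 6 genes of the spindle checkpoint and partners of the anaphase-promoting complex, 4 of the chromosomal passenger complex and 7 of centromere and kinetochore. The others are 9 kinesin motors, 4 genes of spindle assembly and the midzone, 3 of cytokinesis, and *Top2a* and *Mki67*, which act in chromosome structure and mark proliferating cells. The 43 genes are part of the 15536 genes whose highest group average was 10 normalized counts or more, called kept genes below, and the lowest such maximum among the 43 was 84.6, for *Cdc25c*.

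Cells enter mitosis when CDK1, bound to cyclin A or cyclin B, is freed from inhibitory phosphates by CDC25 phosphatases. Chromosomes then attach through their kinetochores to a spindle built by kinesins and microtubule-binding proteins, and the spindle checkpoint holds back the anaphase-promoting complex until they are attached. Most of these genes are transcribed in a periodic way, low in resting cells and high in late S, G2 and M phase, and are held down in resting cells by the DREAM complex through promoter elements called CHR, while the trimeric factor NF-Y binds CCAAT boxes in the same promoters. Mature naive T cells in the thymus and periphery are mostly at rest, so that in a pool of T cells these transcripts come mostly from the cells in cycle.

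RNA was sequenced from 20 samples of C57BL/6 mice. CD4SP thymocytes, the CD4 single-positive cells that follow positive selection, were sorted as CD4+TCRb+CD8- cells from 5 control, 3 *Id3*-deficient and 3 *Id2*/*Id3*-deficient samples. The deficient cells of the latter carried floxed *Id2* and *Id3* alleles deleted by IL7R-Cre, which acts from early lymphoid progenitors on, so that lymphocytes other than CD4SP cells can be affected too. The thymocytes of all 3 kinds came from mice 8 wk old. The sample labels give the controls as wild type, where the methods of the study use *Id3*+/- or littermate controls. TFH cells, the CD4 helper cells of germinal centers, were 3 samples of wild-type CD44highCXCR5+ CD4 T cells, sorted from the spleen after immunization with sheep erythrocytes. The 6 lymphomas were *Id2*/*Id3*-deficient T cell tumors, 4 from lymph node, 1 from spleen and 1 from thymus. By their labels, 4 were sorted as CD4+ and 2 as CD8+ cells. Lymphomas of the study arose in mice many months old with floxed *Id2* and *Id3* and IL7R-Cre, CD4-Cre or dLck-Cre. Which line and age the sequenced ones had is not stated in the sources used here, and each lymphoma may be a single clone. Sex is not given either. *Xist*, the RNA that coats the silenced X chromosome of females, averaged 19.7 normalized counts in *Id2*-/-*Id3*-/- CD4SP cells. It averaged 10461 in control cells, 10477 in the lymphomas, 9909 in TFH cells and 5060 in the libraries labelled *Id3*-/-. Sex and genotype thus cannot be told apart for *Id2*-/-*Id3*-/- CD4SP over control cells. For lymphoma over *Id2*-/-*Id3*-/- CD4SP cells, sex and malignancy cannot be told apart. *Kif4* is the X-linked gene among the 43.

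The table holds a single value per gene and group, the mean of the DESeq-normalized counts of the group's libraries. No error, test or depth could be derived from these means, a high mean may rest on few libraries, and every ratio below is a description. The ratios of 4 groups to control all share the control average. Most mitosis and spindle genes rise together in cycling cells, so a count of them is not a count of independent observations. Ratios are log2 ratios of averages with 1 normalized count added to both, so that 1 stands for 2-fold. In bulk RNA a higher average cannot tell more dividing cells from more transcript per cell. By flow cytometry the study found more Ki67-positive and BrdU-labelled CD4SP cells, and larger ones, in *Id2*/*Id3*-deficient than in control thymi. The part of either in the ratios below was not tested. The 5 averages summed over all genes to between 13386015 and 15497262 normalized counts. *Id2* averaged 2293 normalized counts in control, 6.82 in *Id2*-/-*Id3*-/- CD4SP cells and 30.5 in the lymphomas. *Id3* averaged 1991, 880 and 857 in the same groups, so that *Id3* reads were lower but not gone where both genes were deleted by label. In the libraries labelled *Id3*-/- the *Id3* average was 2650, above that of control. Whether the targeted allele still yields reads is not known from the sources used here, and these libraries are called by their label throughout. The 7 T cell identity markers, *Cd3e*, *Cd3d*, *Cd3g*, *Cd4*, *Cd2*, *Lck* and *Thy1*, were present in all 5 groups. Their summed averages were 75463 in control, 76810 in TFH, 71064 in the libraries labelled *Id3*-/-, 70680 in *Id2*-/-*Id3*-/- CD4SP cells and 47321 in the lymphomas. In lymphoma over control cells 6 of the 7 were lower, with a median log2 ratio of -0.56. In *Id2*-/-*Id3*-/- CD4SP over control cells their median was 0.01, with 1 past 2-fold lower at -1.20.

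The table of RefSeq promoter windows on GRCm38.p6 used here, from 250 bases before to 50 after the gene start, matched 36 of the 43 genes. *Ccna2*, *Cdc25c*, *Aurkb*, *Incenp*, *Spc24*, *Kif20a* and *Tpx2* were not matched in that table. The stretch of 100 bases before to 50 bases after the start is printed for 5 of them, chosen after the expression values were seen. *Ttk*, *Ccnb1* and *Cdk1* had the highest ratios of *Id2*-/-*Id3*-/- CD4SP to control cells among the genes with an entry, *Ccnb2* had the highest ratio of lymphoma to *Id2*-/-*Id3*-/- CD4SP cells, and *Kif23* had the lowest ratio to control cells. Capitals mark CCAAT or its reverse complement ATTGG, the NF-Y box, and the CHR elements TTTGAA (reverse complement TTCAAA) and TTCGAA.
Ttk, chr9:83834589-83834738, plus strand: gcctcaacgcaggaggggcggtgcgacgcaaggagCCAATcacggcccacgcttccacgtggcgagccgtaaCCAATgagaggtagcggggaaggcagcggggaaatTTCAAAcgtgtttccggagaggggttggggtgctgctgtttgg
Ccnb1, chr13:100786437-100786586, minus strand: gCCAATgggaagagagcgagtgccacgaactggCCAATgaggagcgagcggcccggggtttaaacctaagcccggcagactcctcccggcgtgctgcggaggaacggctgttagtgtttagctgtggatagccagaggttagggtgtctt
Cdk1, chr10:69352863-69353012, minus strand: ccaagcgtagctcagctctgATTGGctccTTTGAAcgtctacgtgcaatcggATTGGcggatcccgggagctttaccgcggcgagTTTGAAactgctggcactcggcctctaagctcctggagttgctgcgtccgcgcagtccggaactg
Ccnb2, chr9:70421505-70421654, minus strand: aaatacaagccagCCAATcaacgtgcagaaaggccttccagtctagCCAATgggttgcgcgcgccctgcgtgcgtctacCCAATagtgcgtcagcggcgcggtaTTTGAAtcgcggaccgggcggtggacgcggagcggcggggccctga
Kif23, chr9:61946750-61946899, minus strand: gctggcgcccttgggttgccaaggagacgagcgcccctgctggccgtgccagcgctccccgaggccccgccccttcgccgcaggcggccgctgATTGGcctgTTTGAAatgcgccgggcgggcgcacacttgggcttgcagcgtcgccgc

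In these 150 bases, *Ttk* held 2 NF-Y boxes and 1 CHR element, *Ccnb2* 3 and 1, *Cdk1* 2 and 2, *Kif23* 1 and 1, and *Ccnb1* 2 NF-Y boxes and no CHR element. Over the whole window of 300 bases, 26 of the 36 genes (72.2%) held an NF-Y box on either strand, against 41.1% of the 27025 genes with a RefSeq window. A CHR element on either strand was found in 28 of the 36 (77.8%) against 21.7% of all genes. Both motifs were found in 23 (63.9%) against 9.65% of all genes, and 19 (52.8%) held 2 or more NF-Y boxes against 13.3%. In the window of 150 bases, 24 held an NF-Y box, 27 a CHR element and 21 both, against 26.3%, 9.87% and 2.83% of all genes. *Ccnb1*, *Nek2* and *Cenpe* had an NF-Y box without a CHR element in the whole window. *Ndc80*, *Kif20b*, *Kif2c*, *Kif15* and *Anln* had a CHR element without an NF-Y box, and *Mad2l1*, *Birc5*, *Nuf2*, *Kif18a* and *Nusap1* had neither. The motifs overlapped each other in 1 window. The shares of all genes here are over every gene with a RefSeq window, not over the kept genes. These are letter matches in a fixed window and no measure of binding.

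**Figure D1:**
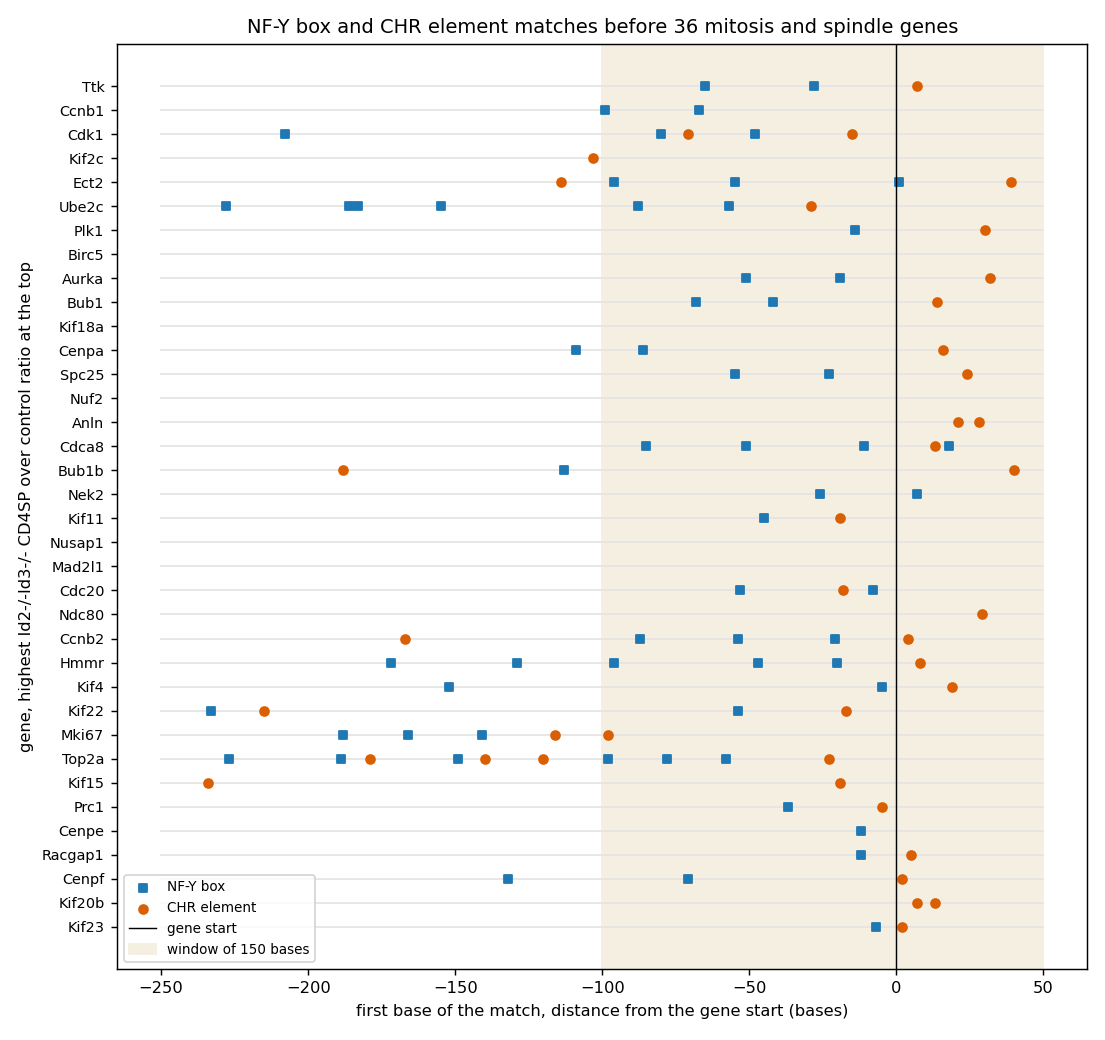
Distance of each NF-Y box (blue squares) and CHR element (orange circles) from the gene start, in bases, for the 36 genes with a RefSeq promoter window, ordered by their ratio of *Id2*-/-*Id3*-/- CD4SP to control cells (the first window is drawn for genes with 2 windows). Matches of both kinds gather in the shaded 150 bases around the start, where 21 genes held both, and *Kif23* at the bottom held 1 of each.

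Across the 5 groups the 43 genes shared a high and a low end more than a full order. The lymphoma average was the highest for 36 of the 43, the *Id2*-/-*Id3*-/- CD4SP average for 6 and the control average for 1, against 30.4%, 19.2% and 17.5% of all kept genes. The control average was the lowest for 34 of the 43 and the TFH average for 7, against 17.7% and 23.3% of all kept genes. The commonest order, for 23 of the 43 genes, ran from lymphoma over *Id2*-/-*Id3*-/- CD4SP, TFH and the libraries labelled *Id3*-/- down to control. The share of all kept genes with this order was not taken. The order also depends on scaling. With averages scaled to the same sum, 6 genes changed sides between lymphoma and *Id2*-/-*Id3*-/- CD4SP cells, and 4 between the libraries labelled *Id3*-/- and control. With no error on the averages, whether neighbours in this order differ beyond the spread of their libraries was not tested. Summed over the 43 genes, the averages made up 0.135% of all normalized counts in control cells, 0.145% in the libraries labelled *Id3*-/-, 0.151% in TFH cells, 0.188% in *Id2*-/-*Id3*-/- CD4SP cells and 0.231% in the lymphomas. *Top2a* and *Mki67* held 27.3% of the sum in control cells and 27.8% in the lymphomas.

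Levels of different genes were compared per kilobase of exon. In control CD4SP cells they reached from 14.2 normalized counts per kb for *Cdc25c* to 530 for *Top2a*, and in *Id2*-/-*Id3*-/- CD4SP cells from 29.1 to 716 for the same genes. Below *Top2a* in control cells came *Cenpa*, the histone variant of centromeres, at 397 per kb, *Ccnb2* at 253, *Incenp* at 225 and *Kif23* at 222. *Kif23* was thus 5th of the 43 in control cells per kb of exon, and it was 31st in *Id2*-/-*Id3*-/- CD4SP cells at 81.4.

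**Figure D2:**
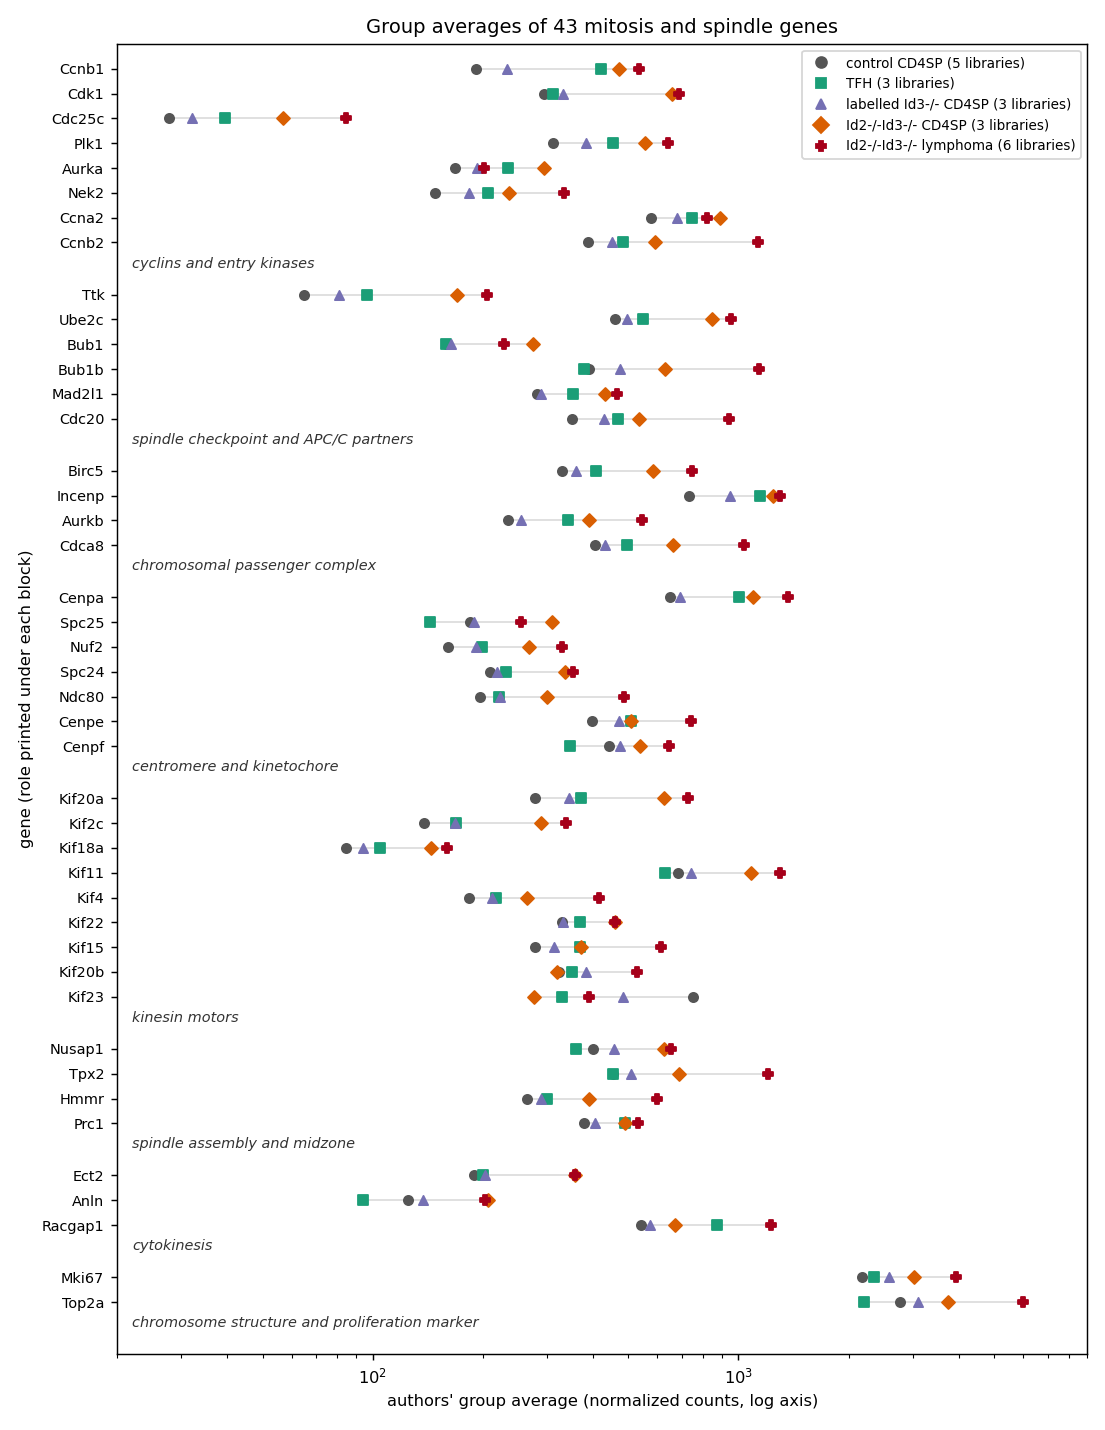
Authors' average in each of the 5 groups (normalized counts, log axis) for each of the 43 genes, in blocks by role and ordered by the ratio of *Id2*-/-*Id3*-/- CD4SP to control cells. Error bars are absent because the values are group means. The control average is the leftmost point for 34 genes, while for *Kif23* it is the rightmost at 753.

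The study asked what loss of *Id2* and *Id3* changes in the transcripts of CD4SP thymocytes. It found that a large fraction of *Id2*/*Id3*-deficient CD4SP cells carried the TFH markers CXCR5 and ICOS, with an oligoclonal T cell receptor repertoire. The sorted pools thus differ in cell make-up as well as genotype, and the ratios below cannot tell these apart. Of the 43 genes, 41 averaged higher in the *Id2*-/-*Id3*-/- CD4SP group than in control, where 51.4% of the kept genes did. Their median log2 ratio was 0.68, a ratio of 1.60, against 0.02 over all kept genes. The differences were moderate, and the 2-fold limit was passed upward by 6 of the 43, *Ttk*, *Ccnb1*, *Kif20a*, *Cdk1*, *Kif2c* and *Cdc25c*, or 14.0%, as it was by 14.1% of the kept genes. The count past 2-fold is thus at the background, while the median is not. The quartiles of the 43 ratios were 0.55 and 0.79 against -0.43 and 0.54 over all kept genes, and 32 of the 43 lay above the upper quartile of the kept genes. Only *Kif23* was past 2-fold lower, where 10.1% of the kept genes were. Just inside the 2-fold limit stood *Cdc25c* at 1.01 and *Kif2c* at 1.06, and just outside *Ect2* at 0.91 and *Ube2c* at 0.87. At 1.5-fold, 31 of the 43 were past the limit upward, against 23.6% of the kept genes, and at 3-fold none, against 8.03%. With averages scaled to the same sum, 4 of the 6 were past 2-fold, without *Cdc25c* and *Kif2c*, against 12.7% of the kept genes.

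**Figure D3:**
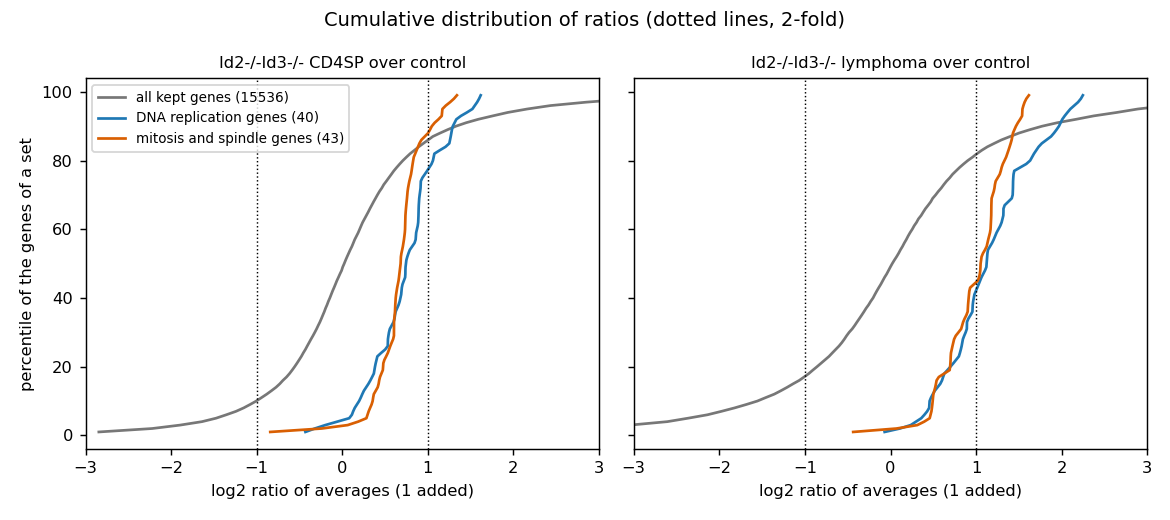
Cumulative distribution of log2 ratios to control CD4SP cells in *Id2*-/-*Id3*-/- CD4SP cells (left) and lymphomas (right) for the 43 mitosis and spindle genes (orange), 40 DNA replication genes (blue) and all 15536 kept genes (gray), with 2-fold marked by dotted lines. The orange curve is steep and lies to the right of the gray one for most of its height, with medians of 0.68 and 1.05.

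All 8 cyclins and entry kinases averaged higher in *Id2*-/-*Id3*-/- CD4SP cells, with a median log2 ratio of 0.82. *Ccnb1*, which encodes cyclin B1, the partner of CDK1 at mitotic entry, averaged 192 normalized counts in control, 421 in TFH, 233 in the libraries labelled *Id3*-/-, 470 in *Id2*-/-*Id3*-/- CD4SP cells and 534 in the lymphomas. Its ratio of *Id2*-/-*Id3*-/- CD4SP to control cells, 1.29, was the highest of the role, and the TFH average stood closer to the *Id2*/*Id3*-deficient groups than to control. *Cdk1*, the kinase itself on chromosome 10 from 69335146 to 69352938 of mm10, averaged 294, 312, 331, 659 and 688 in the same order. For *Cdk1* the 3 groups with *Id2* lay within 294 to 331, and both *Id2*/*Id3*-deficient groups stood about 2-fold above them, with log2 ratios to control of 1.16 and 1.22. *Ccnb2*, which encodes cyclin B2 and had the lowest ratio of the role at 0.60, averaged 388, 485, 451, 590 and 1131. Its lymphoma average was far above the other 4. *Cdc25c*, a CDK1-activating phosphatase, had a ratio of 1.01 on averages of 27.7 and 56.7. *Plk1*, *Aurka*, *Nek2* and *Ccna2* had ratios of 0.83, 0.81, 0.67 and 0.63. They encode mitotic kinases and, for *Ccna2*, cyclin A2 of S and G2 phase.

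The 6 genes of the spindle checkpoint and its targets had ratios of 0.62 to 1.37. *Ttk*, which encodes the MPS1 kinase that starts checkpoint signaling at unattached kinetochores, averaged 65.0 in control, 96.6 in TFH, 81.1 in the libraries labelled *Id3*-/-, 170 in *Id2*-/-*Id3*-/- CD4SP cells and 206 in the lymphomas. Its ratio of 1.37 was the highest of all 43 genes. The lowest of the role was *Cdc20*, the activator of the anaphase-promoting complex that the checkpoint restrains, with averages of 350, 469, 430, 536 and 945 and a ratio of 0.62, next to *Mad2l1*, the checkpoint effector MAD2, also at 0.62. *Bub1* and *Bub1b*, which encode the checkpoint kinase BUB1 and BUBR1, had ratios of 0.78 and 0.69, and *Ube2c*, the ubiquitin-conjugating enzyme of the anaphase-promoting complex, 0.87.

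The 4 genes of the chromosomal passenger complex, which corrects faulty attachments and later acts in cytokinesis, had close ratios. *Birc5*, which encodes survivin, was the highest at 0.82 with averages of 330 in control cells and 583 in *Id2*-/-*Id3*-/- CD4SP cells. *Cdca8*, which encodes borealin, was the lowest at 0.71 with averages of 405 and 662. The kinase gene *Aurkb* and the scaffold gene *Incenp* stood between them at 0.73 and 0.76.

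Among the 7 genes of centromere and kinetochore the ratios were 0.28 to 0.75. The 4 subunits of the NDC80 complex, the microtubule anchor of the kinetochore, were at 0.60 for *Ndc80*, 0.74 for *Nuf2*, 0.68 for *Spc24* and 0.74 for *Spc25*. *Cenpa* was the highest of the role, with averages of 651 in control, 1001 in TFH, 693 in the libraries labelled *Id3*-/-, 1094 in *Id2*-/-*Id3*-/- CD4SP cells and 1365 in the lymphomas. The large outer kinetochore proteins were lower, at 0.35 for *Cenpe*, a kinesin that brings chromosomes to the spindle equator, and 0.28 for *Cenpf*, which averaged 443, 347, 475, 538 and 646. Their ratios lie inside the middle range of all kept genes.

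The 9 kinesin motors had the widest range of ratios of the 8 roles. *Kif20a*, a motor of the central spindle, averaged 278 in control, 372 in TFH, 345 in the libraries labelled *Id3*-/-, 627 in *Id2*-/-*Id3*-/- CD4SP cells and 726 in the lymphomas, a ratio of 1.17 for *Id2*-/-*Id3*-/- CD4SP to control cells. *Kif2c*, the microtubule-depolymerizing motor MCAK, had a ratio of 1.06, *Kif18a* 0.76, and *Kif11*, the motor that pushes spindle poles apart, 0.66. *Kif4*, *Kif22* and *Kif15* were at 0.53, 0.48 and 0.42. *Kif20b*, whose averages were 323 in control cells and 320 in *Id2*-/-*Id3*-/- CD4SP cells, had a ratio of -0.01.

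*Kif23* had the lowest ratio of the 43 genes in every comparison with control cells. It encodes MKLP1, which with the product of *Racgap1* forms centralspindlin, the complex that bundles the central spindle and recruits the cytokinesis machinery. On mm10 the gene spans chromosome 9, positions 61915905 to 61946774. *Kif23* averaged 753 normalized counts in control, 330 in TFH, 485 in the libraries labelled *Id3*-/-, 277 in *Id2*-/-*Id3*-/- CD4SP cells and 391 in the lymphomas. Control was the highest and *Id2*-/-*Id3*-/- CD4SP the lowest of the 5 averages, with log2 ratios to control of -1.19, -0.63, -1.44 and -0.94 for TFH, the libraries labelled *Id3*-/-, *Id2*-/-*Id3*-/- CD4SP and lymphoma. All 4 ratios share the control average. *Racgap1* averaged 542, 872, 572, 672 and 1230 in the same order of groups, so that the gene for its partner in centralspindlin was lowest in control cells. No annotated gene overlaps *Kif23*. Its nearest downstream neighbour on the same strand, the ribosomal protein gene *Rplp1*, starts beyond a gap of 1362 bases and averaged 28561 in control cells and 40867 in *Id2*-/-*Id3*-/- CD4SP cells, and its part in the *Kif23* value was not tested. Without values per library, how many control libraries carry the high *Kif23* average is unknown.

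The 4 genes of spindle assembly and the midzone had ratios of 0.37 to 0.64. *Nusap1*, a microtubule-stabilizing protein of the spindle, was the highest with averages of 401 in control cells and 626 in *Id2*-/-*Id3*-/- CD4SP cells, and *Prc1*, which bundles the midzone microtubules, the lowest with 379 and 489. *Tpx2*, the activator of aurora A, and *Hmmr* were at 0.60 and 0.56. Of the cytokinesis genes, *Ect2*, the RhoA exchange factor of the cleavage furrow, averaged 189 in control cells and 356 in *Id2*-/-*Id3*-/- CD4SP cells, a ratio of 0.91, while anillin, encoded by *Anln*, was at 0.72 and *Racgap1* at 0.31. *Top2a*, which encodes topoisomerase IIα, averaged 2765 in control cells and 3740 in *Id2*-/-*Id3*-/- CD4SP cells, a ratio of 0.44, and *Mki67*, which encodes the Ki-67 antigen, 2179 and 3029, a ratio of 0.47. Both ratios were below the median of the 43 genes.

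**Figure D4:**
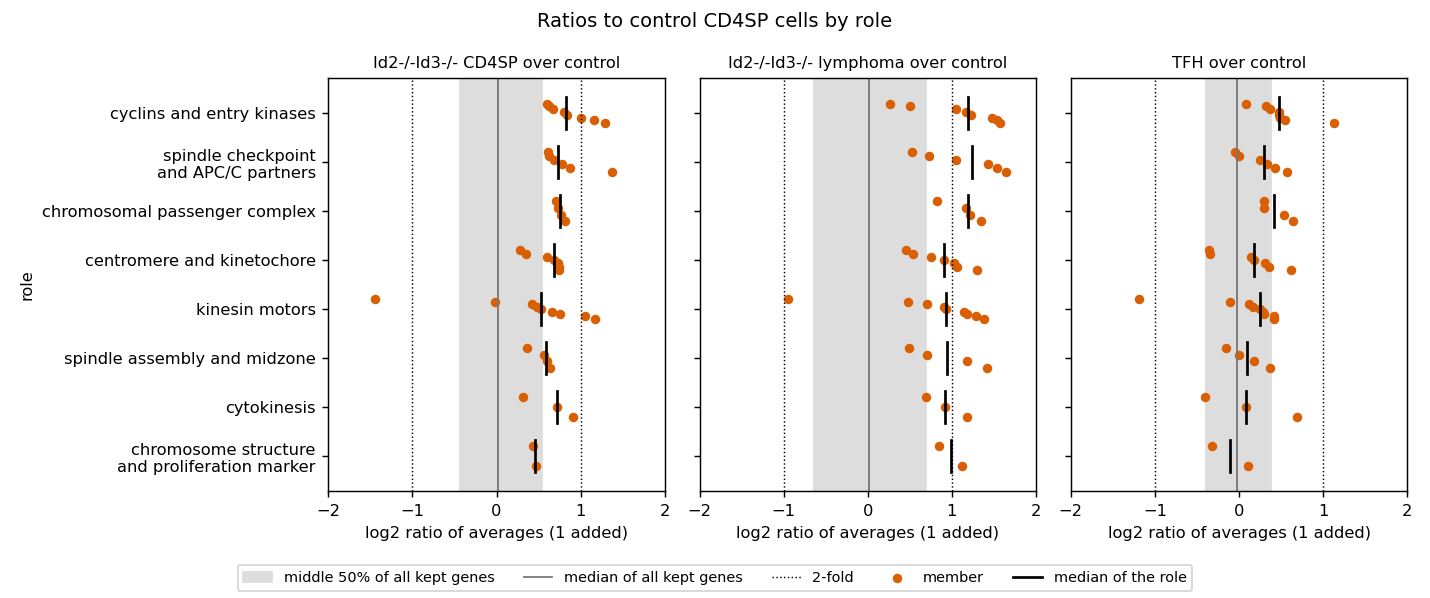
Log2 ratios of averages to control CD4SP cells (1 added to both) by role, for *Id2*-/-*Id3*-/- CD4SP cells (left), lymphomas (middle) and TFH cells (right). Points are genes, black bars the median of a role, the gray band the middle 50% of all kept genes and dotted lines 2-fold. The medians of all 8 roles are at 0.46 or higher on the left and at 0.90 or higher in the middle, and *Kif23* is the point left of all others in each panel.

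The lymphomas were compared with the same control average. Of the 43 genes, 42 averaged higher in the lymphomas, where 50.9% of the kept genes did, with a median log2 ratio of 1.05, a ratio of 2.07, against 0.02 over all kept genes. Past 2-fold higher were 24 of the 43, or 55.8%, against 18.2% of the kept genes. None was past 2-fold lower, where 17.2% of the kept genes were, and *Kif23* was at -0.94. The lymphoma averages have the largest sum of the 5 groups. When all averages were scaled to the same sum, the median of all kept genes moved to -0.18, 13 of the 43 genes remained past 2-fold higher against 15.2% of the kept genes, and the median of the 43 was 0.85. Under that scaling 1 gene, *Kif23*, was past 2-fold lower.

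In the lymphomas the highest ratios to control belonged to *Ttk* at 1.65, *Cdc25c* at 1.58, *Ccnb2* at 1.54 and *Bub1b* at 1.54. *Bub1b* averaged 391 in control, 378 in TFH, 476 in the libraries labelled *Id3*-/-, 629 in *Id2*-/-*Id3*-/- CD4SP and 1136 in lymphoma cells. The genes of spindle assembly split, with *Tpx2* at 1.41 and *Hmmr* at 1.18 against 0.70 for *Nusap1* and 0.49 for *Prc1*. By role the medians were 1.20 for cyclins and entry kinases, 1.24 for the checkpoint, 1.19 for the passenger complex, 0.90 for centromere and kinetochore, 0.92 for the kinesins and 0.91 for cytokinesis. The lowest ratio above control was that of *Aurka*, which encodes aurora A, at 0.26. *Aurka* averaged 168, 235, 193, 294 and 202 in control, TFH, the libraries labelled *Id3*-/-, *Id2*-/-*Id3*-/- CD4SP cells and lymphomas, and was thus lower in the tumors than in both TFH and *Id2*-/-*Id3*-/- CD4SP cells. Just inside the 2-fold limit stood *Nuf2* at 1.03 and *Plk1* at 1.05, and just outside *Kif11* at 0.92 and *Ect2* at 0.91.

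Set directly against *Id2*-/-*Id3*-/- CD4SP cells, the lymphomas averaged higher for 37 of the 43 genes, where 51.9% of the kept genes were higher, and for 31 with averages scaled to the same sum, under which *Cdk1*, *Mad2l1*, *Incenp*, *Spc24*, *Nusap1* and *Ect2* changed sides. The median log2 ratio was 0.27 against 0.03 over all kept genes, and 0.16 against -0.08 with the same sums. None was past 2-fold in either direction, where 11.1% of the kept genes were past it upward and 14.4% downward. At 1.5-fold 12 of the 43 were past the limit upward, against 20.1% of the kept genes. The highest ratios were those of *Ccnb2* at 0.94, *Racgap1* at 0.87, *Bub1b* at 0.85, *Cdc20* at 0.82 and *Tpx2* at 0.81. The lowest were *Aurka* at -0.54, *Spc25* at -0.28, *Bub1* at -0.26 and *Ccna2* at -0.13. Members of 1 complex lay apart here, with *Ndc80* at 0.70 and *Spc25* at -0.28 in the NDC80 complex. *Bub1b*, at 0.85, and *Bub1*, at -0.26, also went opposite ways. Tissue, sort, clonality, sex and the age of the mice can differ between the lymphomas and the thymic cells and cannot be told apart from malignancy in this comparison. *Xist* averaged 10477 in the lymphomas and 19.7 in *Id2*-/-*Id3*-/- CD4SP cells.

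**Figure D5:**
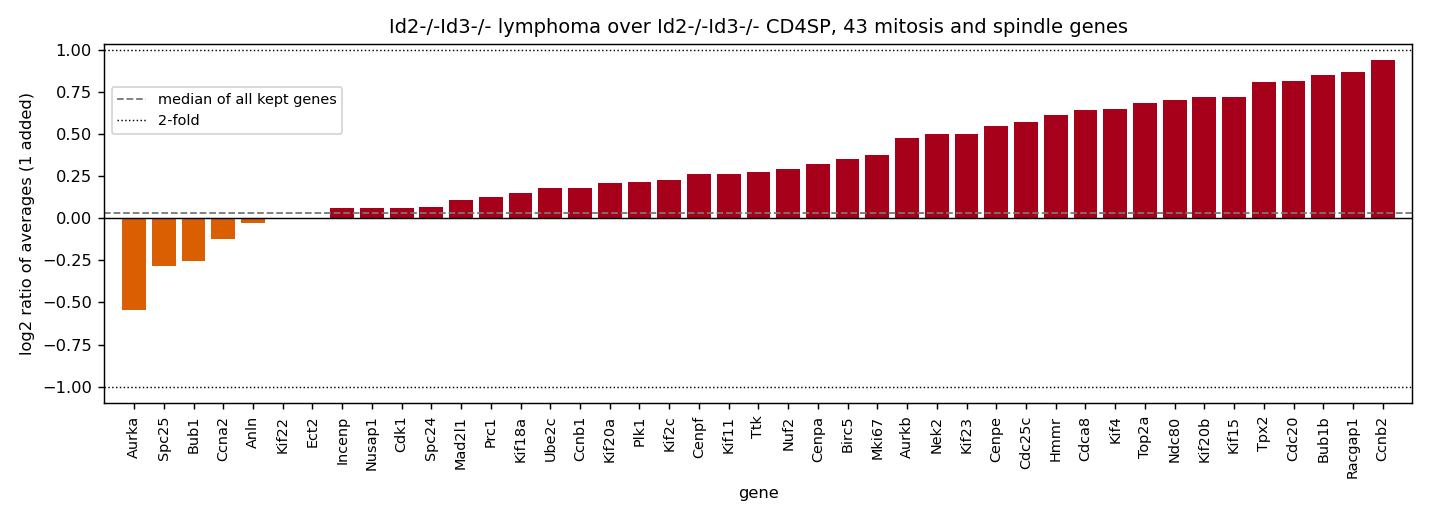
Log2 ratio of the lymphoma average to the *Id2*-/-*Id3*-/- CD4SP average (1 added to both) for each of the 43 genes, in increasing order, with the median of all kept genes (dashed, 0.03) and 2-fold (dotted). Bars below 0 are orange and bars above 0 red. The ratios run from -0.54 for *Aurka* to 0.94 for *Ccnb2* and none reaches 2-fold.

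TFH cells show how these genes stand in helper cells of an immune response. Of the 43 genes, 35 averaged higher than in control CD4SP cells, where 47.9% of the kept genes did, with a median log2 ratio of 0.29 against -0.02 over all kept genes. Past 2-fold higher was *Ccnb1* alone, at 1.13, where 11.8% of the kept genes were, and past 2-fold lower *Kif23* alone, where 9.8% were. Next below the limit were *Racgap1* at 0.69, *Incenp* at 0.64 and *Cenpa* at 0.62. Besides *Kif23*, lower averages than in control cells were those of *Anln* at -0.41, *Spc25* at -0.36, *Cenpf* at -0.35, *Top2a* at -0.32, *Nusap1* at -0.16, *Kif11* at -0.11 and *Bub1b* at -0.05. *Spc25* averaged 185 in control, 144 in TFH and 309 in *Id2*-/-*Id3*-/- CD4SP cells. *Top2a* averaged 2765, 2209 and 3740 in these groups. Cyclin B1 and the passenger complex thus stood on one side of control in TFH cells, and *Top2a*, *Anln*, *Spc25* and *Cenpf* on the other.

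In the libraries labelled *Id3*-/-, 42 of the 43 genes averaged higher than in control cells, where 48.6% of the kept genes did, and 38 with averages scaled to the same sum, under which *Bub1*, *Mad2l1*, *Spc25* and *Kif22* changed sides. The differences were small, with a median log2 ratio of 0.17 against -0.01 over all kept genes, and a highest ratio of 0.37, for *Incenp*. With the same sums the median was 0.12 against -0.06 over all kept genes. None was past 2-fold higher, where 5.57% of the kept genes were, or lower, where 4.43% were. *Incenp* averaged 732 in control and 947 in these libraries, *Ttk* 65.0 and 81.1, and *Kif23* 753 and 485.

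Other genes of the division machinery, listed with earlier results of these data known, were read in the same way for *Id2*-/-*Id3*-/- CD4SP over control cells, where 14.1% of the kept genes were past 2-fold higher and 10.1% lower. Of 33 other kinetochore and centromere genes, 4 were past 2-fold higher, or 12.1%, and none lower, with a median of 0.37. Their extremes were *Cenpw* at 1.15 and *Cenpt* at -0.71. Of 29 other spindle and cytokinesis genes, 5 were past 2-fold higher, or 17.2%, and none lower, with a median of 0.62. Both shares are near the background. *Sapcd2* was the highest at 1.95 and *Pimreg* the lowest at -0.91. *Pimreg* averaged 80.9 in control, 42.7 in *Id2*-/-*Id3*-/- CD4SP and 2.86 in lymphoma cells, a log2 ratio of -4.41 in the lymphomas. The 14 genes of the APC/C core with its regulators had a median of -0.03, with none past 2-fold, from *Anapc4*, a scaffold subunit, at -0.34 to *Fbxo5*, which encodes the inhibitor EMI1, at 0.83. The small subunit gene *Anapc13*, named after its value was seen, was at 0.67, beside 0.62 and 0.87 for the partners *Cdc20* and *Ube2c*.

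Condensin and cohesin genes, 18 in all, had a median of 0.07, with 1 past 2-fold higher and none lower. *Cdca5*, which encodes sororin, the protector of cohesion, was the highest at 1.21, and *Nipbl*, the cohesin loader, the lowest at -0.68. Of 11 genes for CDK1 brakes and phosphatases, 3 were past 2-fold higher and none lower, with a median of 0.35. *Cdc25b*, a phosphatase that activates CDK1, averaged 554 in control, 2775 in TFH, 784 in the libraries labelled *Id3*-/-, 3408 in *Id2*-/-*Id3*-/- CD4SP cells and 3427 in the lymphomas, a ratio of 2.62 for *Id2*-/-*Id3*-/- CD4SP to control cells that was above that of all 43 genes. The lowest of that list was *Ensa* at -0.29.

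Among 23 regulators of mitotic transcription the median was 0.27, with 1 past 2-fold higher and none lower. *E2f2*, an E2F activator, was the highest at 1.26, with averages of 849 in control, 832 in TFH, 979 in the libraries labelled *Id3*-/-, 2041 in *Id2*-/-*Id3*-/- CD4SP cells and 1988 in the lymphomas. *Mybl2*, the B-MYB partner of the activating form of the MuvB core, followed at 0.97, with *E2f1* at 0.95 and *E2f8* at 0.87. *Rb1*, the retinoblastoma repressor of E2F, was the lowest at -0.81, with averages of 1132 in control, 644 in *Id2*-/-*Id3*-/- CD4SP and 354 in lymphoma cells. DNA replication genes, 40 in all, had a median of 0.74 with 9 past 2-fold higher, or 22.5% against 14.1% of the kept genes, and none lower, from *Cdc7* at -0.54 to *Rrm2* at 1.64. In the lymphomas their median was 1.12 with 23 past 2-fold higher, or 57.5% against 18.2% of the kept genes. In TFH cells it was 0.13 with 1 past 2-fold higher, or 2.5%, below the 11.8% of the kept genes. The S phase genes thus had medians near those of the 43 mitotic genes in the *Id2*/*Id3*-deficient groups.

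In lymphoma over control cells, where 18.2% of the kept genes were past 2-fold higher and 17.2% lower, 11 of the 33 other kinetochore and centromere genes (33.3%) were past it upward and none downward, with a median of 0.76. Of the 29 other spindle and cytokinesis genes, 11 (37.9%) were past 2-fold higher and 1, *Pimreg*, lower, with a median of 0.69. The counts higher and lower were 4 and 0 of 18 for condensin and cohesin, 1 and 0 of 14 for the APC/C core, 4 and 1 of 23 for the regulators of transcription, where *Rb1* was the lower one at -1.67, and 4 and 0 of 11 for the brakes and phosphatases. The shares higher were 22.2%, 7.14%, 17.4% and 36.4%, of which the first 3 are near or below the background. Their medians were 0.20, 0.17, 0.33 and 0.42. In TFH cells none of the kinetochore, condensin and cohesin, APC/C and regulator genes was past 2-fold in either direction, while 2 of the 29 other spindle and cytokinesis genes and 1 of the 11 brakes and phosphatases were past it upward, against 11.8% of the kept genes. In the libraries labelled *Id3*-/- no gene of the 7 lists was past 2-fold higher, against 5.57% of the kept genes. *Stmn1*, which encodes the microtubule-destabilizing protein stathmin and was named after its values were seen, was the 1 gene of the lists past 2-fold lower in both, at -1.29 in TFH cells and -1.38 in the libraries labelled *Id3*-/-.

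Markers of other cells moved between the groups. The summed average of 7 B cell markers was 106 in control, 558 in TFH, 64.7 in the libraries labelled *Id3*-/-, 122 in *Id2*-/-*Id3*-/- CD4SP cells and 549 in the lymphomas, and that of 7 germinal center B and plasma cell markers was 1259, 3135, 2253, 2421 and 3366. None of either list was at 0 in any group. These sums can rest on few genes. In the libraries labelled *Id3*-/- over control cells, the germinal center B and plasma cell markers had log2 ratios from -0.31 to 5.07, with a median of 0.50. All 7 B cell markers averaged lower there, with a median of -0.67. In *Id2*-/-*Id3*-/- CD4SP over control cells, the germinal center B and plasma cell markers ranged from -0.25 to 3.89, with a median of 0.99. In TFH cells *Ms4a1* and *Pax5* averaged 82.0 and 64.1, where control cells had 6.72 and 4.22 and *Id2*-/-*Id3*-/- CD4SP cells had 9.13 and 4.36. In the lymphomas these genes were at 5.82 and 7.59 and *Cd79b* was at 455. For 7 myeloid markers the sums were 141, 169, 212, 492 and 561, and for 6 erythroid markers 48.3, 24.4, 212, 20.3 and 400, with none of either list at 0. The myeloid markers did not move together. In *Id2*-/-*Id3*-/- CD4SP over control cells, the 5 of them among the kept genes had log2 ratios from -0.98 to 4.87, with a median of 0.85. The sums of 7 immature thymocyte markers were 1283, 658, 881, 703 and 1414, with *Rag2* at 0 in the lymphomas. The 2 CD8 T cell markers summed to 716, 202, 425, 231 and 1849. Immature thymocytes and germinal center B cells divide, and their part in the values of the 43 genes was not tested.

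Of the 43 genes, 10 overlap another protein-coding gene in the annotation, on the opposite strand in all 10, among them *Kif20a*, *Cdc25c* and *Cdc20*. The libraries mark strand, but the sources used here do not say whether the counting used it.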

How the data were processed

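Strand-specific libraries of sorted T cells were sequenced on an Illumina HiSeq instrument. The authors used OSA within Array Studio for alignment to mm10, RSEM for quantification and DESeq for normalization of the counts. The sources used here state no version of these tools. The deposited table gives a signal per gene and group, the average of the normalized counts of the libraries of that group. It holds 0 columns of values per sample, so library depth is unknown. It also holds the authors' fold changes, p-values and false discovery rates against control cells, which were not used. The table was not limited to genes with values of 10 or more.

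Of 39179 genes, 37607 were given symbols by Ensembl identifier. Genes were kept where the highest of the 5 averages was at least 10. Log2 ratios were taken with 1 added to both averages, and a gene was counted past 2-fold above 1 or below -1. Counts and medians were set beside those of all kept genes, without a test. Motif counts were set beside those of all genes with a promoter window. The ratio and count steps were tested on simulated averages. Exon lengths and coordinates are from GENCODE on GRCm38, which is mm10, and promoters from RefSeq on GRCm38.p6. Python 3.11.15, pandas 2.3.3, numpy 2.4.6 and matplotlib 3.10.9 were used. The alternatives were another pseudocount, filter, scaling, fold limit and promoter window. The 43 genes and the other lists were chosen with earlier results of these data known. Named in full were the genes with the highest and lowest ratio of *Id2*-/-*Id3*-/- CD4SP to control cells in each role, those that went against most others, and the extremes of each other list with the next 3 transcription regulators. Further genes were named after their values were seen.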

Additional observations from a re-analysis of the deposited data

How the results depend on the processing

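The averages carry no error, and with no values per library no library could be left out. No paired analysis was possible because the values used are averages per group. With no pseudocount, with a pseudocount of 10, with all genes above 0, with a minimum of 50 and with a median log2 ratio of 0, each median of the 43 genes moved by less than 0.1 and each count past 2-fold by less than 1.5 times. A pseudocount of 10 and a median of 0 each gave 5 genes past 2-fold in *Id2*-/-*Id3*-/- CD4SP over control cells, in place of 6, without *Cdc25c*. With averages rescaled to the same sum, 4 genes in place of 6 were past 2-fold in *Id2*-/-*Id3*-/- CD4SP over control cells, without *Cdc25c* and *Kif2c*, and 13 genes in place of 24 were past 2-fold higher in lymphoma over control cells, with a median of 0.85 in place of 1.05, and the median of lymphoma over *Id2*-/-*Id3*-/- CD4SP cells was 0.16 in place of 0.27. *Kif23* was then past 2-fold lower in lymphoma over control cells. At 1.5-fold the counts were 31 for *Id2*-/-*Id3*-/- CD4SP, 35 for lymphoma and 4 for TFH over control cells, and 12 for lymphoma over *Id2*-/-*Id3*-/- CD4SP cells, against 23.6%, 28.2%, 18.7% and 20.1% of the kept genes. At 3-fold they were 0, 1 and 0 for the first 3, below the 8.03%, 11.3% and 7.1% of the kept genes. No log2 ratio of a gene past 2-fold changed sign under any of these settings. Of the 1500 values of single genes and lists under an alternative, 1395 moved by less than 0.1, and 100 of the 105 others were from the same-sum scaling. Motif counts in the shorter window stayed within 1.5 times.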
